A study of Mus musculus with 8 samples.

Results

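The keratins on this array were described across 3 groups of intestinal epithelial cells. They were taken by name, as all non-control probes whose gene name in the scanner output begins with Krt and a number. The rule found 66 probes for 52 gene names, of 39429 probes and 31791 gene names in all. IEC10 is an immortalized mouse intestinal epithelial line with an Mx2-luciferase reporter transgene, so all 3 groups share that reporter and come from 1 line. The cells had been grown for 21 days on transwell inserts to polarize. Untreated cells gave 2 arrays, called control replicates 2 and 3. Cells exposed for 9 h to IFN-λ2 at 20 ng/mL or to IFN-β at 500 U/mL gave 3 arrays each. Nothing in the sources used here says that replicates came from separate cultures, so the p-values measure the spread between these arrays, which may be technical.

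Keratins are the intermediate filament proteins of epithelial cells. Each filament is assembled from paired proteins, an acidic type I keratin and a basic type II keratin, and the pairs differ between epithelia. The intestinal epithelium is a simple, single-layered epithelium whose filaments are built of Krt8 with Krt18, Krt19 and Krt20. Basal cells of stratified epithelia use Krt5 with Krt14, the layers above them use pairs such as Krt1 with Krt10 or, in moist mucosa, Krt4 with Krt13, and hair, nail and tongue papillae use a large further set. Type III interferons, which include IFN-λ2, and type I interferons, which include IFN-β, signal through different receptors to shared STAT factors.

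Signals are given in units, an array's background-subtracted signal scaled so that the array's 75th percentile is 1500, with a floor of 15. A probe was called detected where the scanner software set it well above background. Such probes numbered 20992 (IFN-λ2 replicate 2) to 24252 (IFN-β replicate 3) an array. Levels are compared only within a probe, since probes differ in how brightly they bind. In bulk RNA, a change in the number of cells that express a gene and a change in RNA per cell cannot be told apart. Control, IFN-λ2 and IFN-β samples each held a fixed position on the slides, which cannot be told apart from the treatment.

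Of the 66 keratin probes, 27 were detected on all 8 arrays and 21 on none. Those 27 are among the 45 keratin probes tested below, where 20267 of all 25615 probes tested were detected on all 8 arrays. The simple epithelial keratins were detected on all 8 arrays by 5 of their 6 probes, the exception being Krt23, a type I keratin of simple epithelia. Among 57 probes for keratins of stratified epithelia and hair, 21 were detected on all 8 arrays and 20 on none. The line carried the basal keratins Krt5, Krt14 and Krt15, the suprabasal keratins Krt10, Krt78, Krt79 and Krt80, and the hair keratins Krt31, Krt81, Krt84, Krt85 and Krt86 on every array. By group, 32 probes were detected on both control arrays, 30 on all 3 IFN-λ2 arrays and 27 on all 3 IFN-β arrays.

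**Figure D1:**
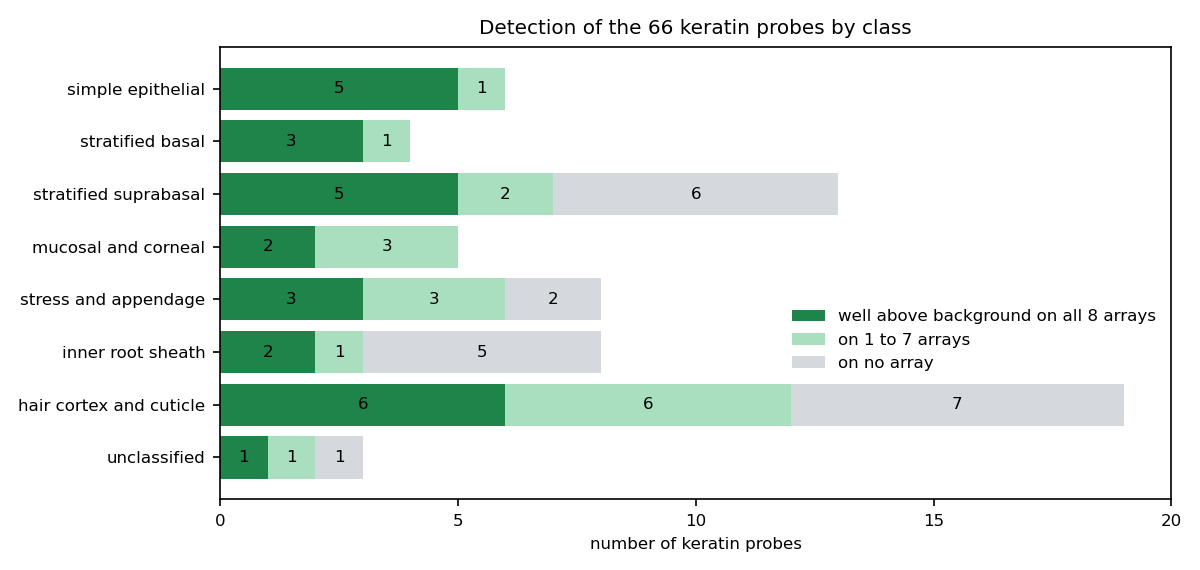
Number of keratin probes (axis in probes) of each class that were well above background on all 8 arrays, on 1 to 7 arrays or on none. The simple epithelial class has 5 of 6 probes on all 8 arrays, while the hair cortex and cuticle class has 6 on all 8, 6 on some and 7 on none.

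The labelled cell type was checked against its markers. Of 6 intestinal epithelial genes, Epcam, Cdh1, Vil1, Cldn3 and Cldn7 were detected on all 8 arrays, while the intestinal homeobox gene Cdx2 was at the floor of 15 units on all 8 and Vil1, the villin of the microvilli, read 36.9 to 62.6 units. Of 6 squamous markers, Trp63, the transcription factor of basal cells, read 1137 to 1510 units on every array, and Dsg3 and Ivl were at 15 on all 8. Each list's probe signals were summed, to be set only against the same list's sum in another group. The summed squamous list, which holds Krt5 and Krt14, was 2667 to 2907 units in controls, 3353 to 3843 with IFN-λ2 and 2653 to 3468 with IFN-β. As Krt5 and Krt14 are among the keratins reported below, this sum is not separate from their values. The summed intestinal list was 84988 to 104975, 80002 to 80747 and 77134 to 93472 units in the same order. The mesenchyme list was 11019 to 13981, 6250 to 7928 and 13058 to 14525 units, with its defining gene Pdgfrb at 15 on all arrays. Of its 6 genes, Vim alone was detected on all 8 arrays. Vim read 10894 and 13858 units in controls and 6517, 6145 and 7808 with IFN-λ2, so the Vim difference given below is not separate from this sum. The blood and endothelium list was 5628 to 7887, 2178 to 3650 and 2751 to 10032 units. Of its 6 genes, 2 were detected on all 8 arrays, and Cdh5 was at 15 on all arrays. The part of these lists in the keratin values was not tested.

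The first comparison asked how keratin transcripts differed after IFN-λ2. A difference was called where limma's adjusted p over the 25615 probes tested was under 0.05, and 45 keratin probes were tested. IFN-λ2 differed from control at 15 keratin probes, 13 higher and 2 lower, which is 33.3 percent of the 45 against 19.1 percent of all probes tested. Higher calls made up 10.8 percent and lower calls 8.25 percent of all probes. By the fitted values, 4 keratin probes were higher past 2-fold, for Krt4, Krt12, Krt84 and a probe named Krt85, where the background is 2.74 percent, and 0 were lower, where it is 1.1 percent. The arrays of the groups did not overlap at 21 keratin probes that were higher and 5 that were lower, against 26.5 and 23.7 percent of all probes. At an unadjusted p under 0.05 the keratins gave 22 probes, where the background is 33.6 percent. The median log2 difference was 0.22 over the keratin probes and 0.016 over all probes. The count of 15 fell to 9 (20 percent of the 45) without either control array, while all probes gave 12.5 percent without control replicate 2 and 10.9 percent without control replicate 3. With a floor of 50 units it was 7, or 15.6 percent, against 18.1 percent of all probes. It includes Krt23 and 1 Krt85 probe (chr15:101261695-101261754, mm9), which met the filter on low values only through their IFN-λ2 arrays, so that they had to differ. Over the probes that meet the filter with any 1 group left out, 13 of 37 keratin probes were called, 11 higher and 2 lower, against 20.4 percent of all such probes, and Krt4, Krt12 and Krt84 were the 3 higher past 2-fold.

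Of the simple epithelial keratins, Krt20 and Krt19 were called among the 5 that meet the filter with any 1 group left out, whose log2 differences ran from 0.12 to 0.74. Krt20, the type I keratin of mature enterocytes and goblet cells (probe at chr11:99289776-99289835, mm9), read 74249 and 89402 units in controls. With IFN-λ2 it read 136362, 138837 and 132871 units, and with IFN-β 100307, 93774 and 92148 units. The 3 groups did not overlap, with IFN-λ2 on top. Krt20 rose 1.67-fold with IFN-λ2 (log2 difference 0.74 ± 0.10 SE, limma adjusted p = 0.00270, n = 3 against 2). Krt19, the small type I keratin of simple and ductal epithelia (chr11:100002392-100002451, mm9), read 15535 and 15709 units in controls and 19856, 22000 and 21040 with IFN-λ2. Its IFN-β arrays, at 12878, 15143 and 13573 units, all lay below both controls. Krt19 rose 1.34-fold with IFN-λ2 (log2 0.42 ± 0.09 SE, limma adjusted p = 0.0199), a call lost without either control array or without IFN-λ2 replicate 2 or 3, where the adjusted p reached 0.0789.

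Krt23 was detected only on IFN-λ2 replicates 1 and 3. It was at the floor of 15 units in both controls and read 35.5, 22.2 and 30.2 units with IFN-λ2. With IFN-β it read 15.4, 15 and 15 units. Where arrays of the dimmer group were not well above background, a fold is given as a bound where that lowers it, taken against the lowest reliably detected signal of those arrays, which for Krt23 is at least 1.74-fold over control. As the probe was tested only because its IFN-λ2 arrays were high, this is given with no test.

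The 3 remaining simple keratins did not pass the test. Krt18, the type I partner of Krt8, read 190042 and 183559 units in controls, 213863, 228102 and 224795 with IFN-λ2, and 188119, 217985 and 205750 with IFN-β (log2 0.25 ± 0.08 SE for IFN-λ2, limma adjusted p = 0.0815). Krt8, the type II keratin of all simple epithelia, read 25948 and 30962 units in controls, 30784, 35116 and 27263 with IFN-λ2, and 28795, 28846 and 26642 with IFN-β. For Krt8 the groups overlapped (log2 0.12 ± 0.13 SE, limma adjusted p = 0.537). Krt7, a type II keratin of glandular and ductal cells, read 16696 and 17954 units in controls, 20582, 23270 and 19991 with IFN-λ2, and 16961, 19189 and 17200 with IFN-β (log2 0.29 ± 0.10 SE, limma adjusted p = 0.0816). IFN-λ2 arrays of Krt7 and Krt18 lay above both controls without passing the threshold, which both passed with limma's trend and robust prior.

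**Figure D2:**
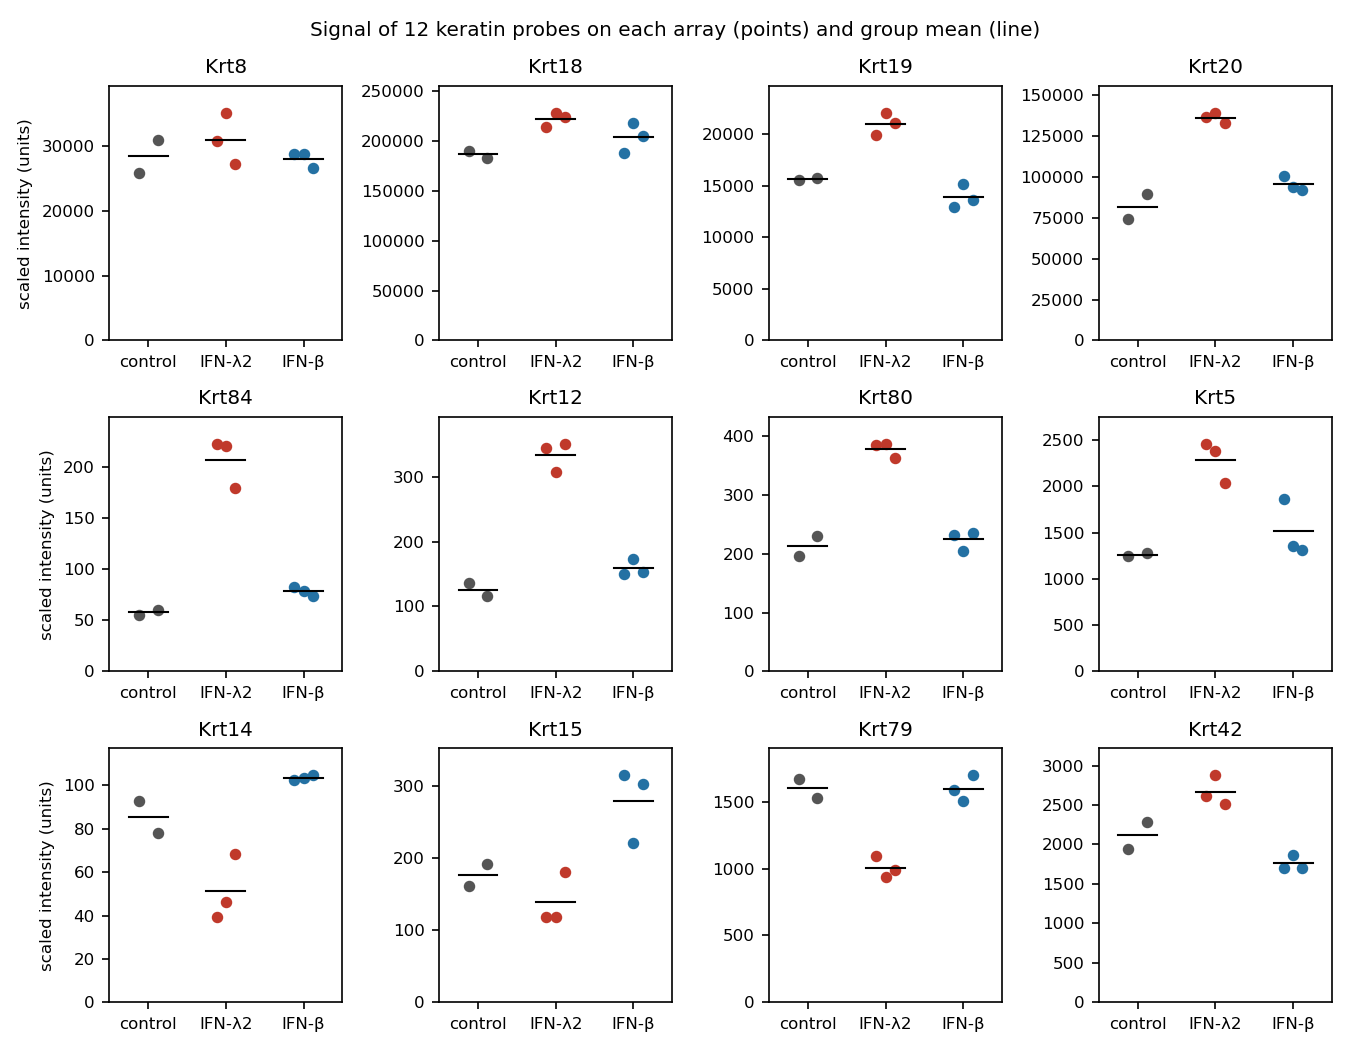
Signal in units (linear axis from 0) of 12 keratin probes on each array, with the control, IFN-λ2 and IFN-β groups side by side; points are arrays and lines are group means. Krt20, Krt84, Krt12 and Krt80 have all 3 IFN-λ2 arrays above every other array, and Krt79 has all 3 below.

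Among stratified keratins, 10 probes were called higher and 2 lower of 37 tested, 1 of the higher being the Krt85 probe named above, and the median log2 difference over probes detected on all 8 arrays was 0.19 for the stratified and 0.29 for the 5 simple keratins. The type I and type II families gave similar counts, 6 higher and 1 lower of 23 type I probes and 7 higher and 1 lower of 22 type II probes. The basal pair split. Krt5, the type II keratin of basal cells (chr15:101537514-101537573, mm9), read 1248 and 1274 units in controls, 2453, 2377 and 2033 with IFN-λ2, and 1865, 1358 and 1314 with IFN-β. Krt5 rose 1.81-fold with IFN-λ2 (log2 0.85 ± 0.16 SE, limma adjusted p = 0.0134), a call lost without either control array or without IFN-λ2 replicate 1, with an adjusted p of up to 0.0662. A second Krt5 probe was above the floor on 1 array, at 147 units, and was not tested. Krt14, the type I partner of Krt5 in basal cells (chr11:100064683-100065288, mm9), read 92.7 and 78.1 units in controls, 39.5, 46.4 and 68.4 with IFN-λ2, and 102, 103 and 105 with IFN-β. All IFN-λ2 arrays were below all others. Krt14 fell by 0.77 ± 0.22 SE on the log2 scale with IFN-λ2 (limma adjusted p = 0.0494). That call held only without IFN-λ2 replicate 3 among the arrays left out in turn (adjusted p from 0.00557 to 0.195), and with replicate number as a block the difference was -0.68 with an adjusted p of 0.112. Krt15, a type I keratin of basal cells and hair follicle stem cells, read 162 and 192 units in controls and 118, 119 and 181 with IFN-λ2 (log2 -0.37 ± 0.23 SE, limma adjusted p = 0.310).

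Suprabasal keratins moved both ways. Krt80, a type II keratin found in differentiating cells of many epithelia (chr15:101180014-101180073, mm9), read 197 and 231 units in controls, 386, 387 and 364 with IFN-λ2, and 233, 206 and 235 with IFN-β. The IFN-λ2 arrays stood clear of the other 5, a rise of 1.78-fold (log2 0.83 ± 0.10 SE, limma adjusted p = 0.00214). Krt78, a type II keratin of stratified epithelia, read 29.5 and 28.5 units in controls, 55.5, 57.0 and 49.9 with IFN-λ2, and 40.9, 39.0 and 31.1 with IFN-β, a rise of 1.86-fold with IFN-λ2 (log2 0.90 ± 0.13 SE, limma adjusted p = 0.00436). A second Krt78 probe, which shares 50 of its 60 bases with the first, read 26.0 and 19.5 units in controls and 28.8, 47.1 and 27.8 with IFN-λ2 and did not pass the test (log2 0.58 ± 0.43 SE, limma adjusted p = 0.398), and with both probes averaged the adjusted p was 0.0892. Krt79, a type II keratin of the hair follicle opening and sebaceous duct, went the other way. It read 1671 and 1530 units in controls, 1095, 935 and 991 with IFN-λ2, and 1583, 1503 and 1697 with IFN-β. Krt79 fell 1.59-fold with IFN-λ2 (log2 -0.67 ± 0.10 SE, limma adjusted p = 0.00455). Krt10, the type I keratin of cornifying epidermis, read 1954 and 2250 units in controls and 2203, 1858 and 2325 with IFN-λ2 (log2 0.02 ± 0.13 SE, limma adjusted p = 0.950). Krt9, the type I keratin of palm and sole skin, read 20.3 to 27.0 units over the 8 arrays, near the floor.

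Mucosal and corneal keratins held some of the larger differences. Krt12, the type I keratin of the corneal epithelium (chr11:99276980-99277039, mm9), read 136 and 116 units in controls, 344, 307 and 350 with IFN-λ2, and 151, 173 and 152 with IFN-β. All IFN-λ2 arrays were above every other array, and Krt12 rose 2.66-fold (log2 1.41 ± 0.11 SE, limma adjusted p = 0.000302). A second Krt12 probe stayed between the floor and 21.8 units on all arrays. Krt4, the type II keratin of oral and oesophageal epithelium (chr15:101750158-101750736, mm9), read 20.5 and 29.0 units in controls and 92.7, 61.4 and 50.1 with IFN-λ2, with 27.2, 27.8 and 23.8 with IFN-β. It was detected on 1 of 2 control arrays and on all 3 IFN-λ2 arrays. Krt4 rose 2.70-fold with IFN-λ2 (log2 1.43 ± 0.27 SE, limma adjusted p = 0.0116), and without control replicate 2 the adjusted p was 0.0706. Krt13, the type I partner of Krt4, read 1016 and 1139 units in controls and 1002, 1457 and 1139 with IFN-λ2, which overlap (log2 0.14 ± 0.17 SE, limma adjusted p = 0.603).

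Of the stress and appendage keratins, Krt6b alone was called. Krt6b, a type II keratin induced in wounded and hyperproliferative epidermis, read 32.2 and 26.1 units in controls, 42.7, 46.9 and 50.6 with IFN-λ2, and 23.6, 18.6 and 28.5 with IFN-β. The log2 difference of IFN-λ2 from control was 0.69 ± 0.19 SE (limma adjusted p = 0.0442), a call that held only without IFN-β replicate 2 or 3 among arrays left out in turn (adjusted p from 0.0246 to 0.216). With replicate number as a block it was 0.71 with an adjusted p of 0.0937. A second Krt6b probe read between 15 and 24.3 units, and with both averaged the Krt6b difference had an adjusted p of 0.124. Its type I partners did not pass the test, with Krt16 at 433 and 415 units in controls and 430, 467 and 522 with IFN-λ2, and Krt17 at 18022 and 17315 units in controls and 16106, 23033 and 21342 with IFN-λ2 (limma adjusted p = 0.421 and 0.512). Krt42, the rodent relative of Krt17, read 1949 and 2287 units in controls and 2616, 2877 and 2508 with IFN-λ2 (log2 0.33 ± 0.10 SE, limma adjusted p = 0.0641). Krt75, of the companion layer of the hair follicle, was at the floor on all 3 IFN-λ2 arrays against 24.0 and 30.6 units in controls, and its IFN-β arrays read 69.7, 15 and 21.5 units (at least 1.37-fold lower with IFN-λ2, limma adjusted p = 0.343, not called).

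Among keratins of the hair inner root sheath, Krt28, a type I member, read 54.5 and 59.5 units in controls, 90.0, 68.3 and 97.4 with IFN-λ2, and 74.1, 81.2 and 74.5 with IFN-β. Both interferon groups lay above both controls. The IFN-λ2 difference was called (log2 0.57 ± 0.15 SE, limma adjusted p = 0.0418), but held only without IFN-λ2 replicate 2 among arrays left out in turn (adjusted p from 0.00748 to 0.161), and with replicate number as a block it was 0.55 with an adjusted p of 0.0868. Krt73, a type II member, read 176 and 207 units in controls and 202, 167 and 231 with IFN-λ2, which overlap (log2 0.06, limma adjusted p = 0.838).

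The largest fold change of a keratin detected on all 8 arrays was that of Krt84, a type II hair keratin also found in the tongue's filiform papillae (chr15:101355458-101355517, mm9). Krt84 read 55.0 and 60.4 units in controls, 222, 220 and 180 with IFN-λ2, and 82.1, 78.9 and 74.1 with IFN-β. The 3 groups did not overlap. It rose 3.58-fold with IFN-λ2 (log2 1.84 ± 0.11 SE, limma adjusted p = 9.99e-05). Krt36, a type I hair and nail keratin, read 28.0 and 22.5 units in controls, 50.4, 41.1 and 57.6 with IFN-λ2, and 40.7, 33.0 and 39.4 with IFN-β, and rose with IFN-λ2 (log2 0.97 ± 0.17 SE, limma adjusted p = 0.010, and 0.0673 without control replicate 3). Its signal on IFN-λ2 replicate 2 and IFN-β replicate 2 was not well above background. A second Krt36 probe read 15 units in both controls and 36.6, 23.3 and 72.2 with IFN-λ2, at least 2.39-fold higher, and did not pass the test (limma adjusted p = 0.0599). Other hair keratins did not pass the test, with Krt81 at 869 and 984 units in controls and 1149, 1072 and 1125 with IFN-λ2, Krt86 at 58.9 and 53.0 against 72.9, 65.8 and 89.6, and Krt31 at 53.3 and 74.9 against 50.8, 44.8 and 72.3 (limma adjusted p = 0.107, 0.0807 and 0.622).

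Krt85, a type II keratin of the hair matrix and cuticle, has 3 probes on the array, and they disagreed. The brightest, for which the files give no position, read 8891 and 9231 units in controls and 10371, 11003 and 9731 with IFN-λ2 (log2 0.19 ± 0.09 SE, limma adjusted p = 0.197). The probe at chr15:101346117-101346176 (mm9) read 114 and 127 units in controls and 77.4, 96.5 and 102 with IFN-λ2, which is lower on all 3 arrays without passing the test (log2 -0.40 ± 0.14 SE, limma adjusted p = 0.0920). The probe at chr15:101261695-101261754 (mm9) was at 15 units in both controls, at 34.1, 33.5 and 31.2 with IFN-λ2, and at 15, 15 and 15.8 with IFN-β. Its IFN-λ2 level exceeded that of controls by at least 1.99-fold, given with no test because the probe met the filter only through that group. It was well above background only on IFN-λ2 replicates 1 and 3, and with a floor of 50 units its difference was 0. By the files' positions it lies nearer to the Krt83 probe (chr15:101263556-101263615, mm9), which was at 15 units on all 8 arrays, than to the other mapped Krt85 probe, and which gene it measures was not settled. Hair keratin genes are close copies of one another, and the brightest Krt85 probe is like those of Krt81 and Krt83 over most of its length. Whether transcripts of 1 gene bind the probes of another was not tested, so the Krt81 and Krt85 levels are those of the probes.

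**Figure D3:**
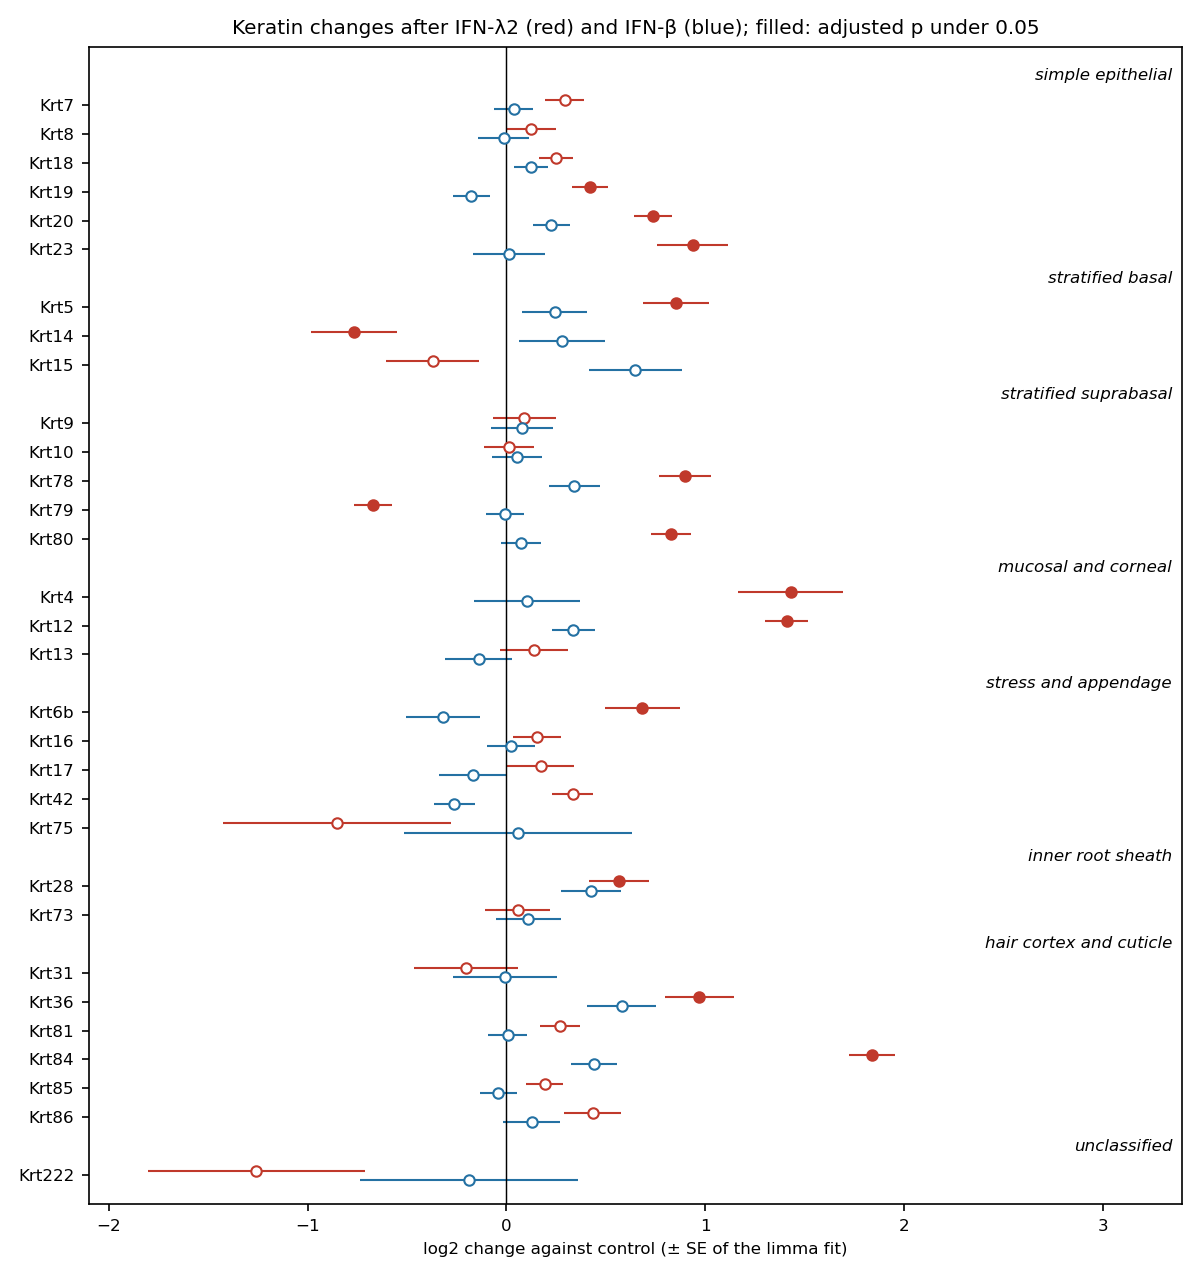
Log2 difference from control (points) with standard error (bars) for the brightest probe of 31 keratin genes, ordered by class; red is IFN-λ2, blue is IFN-β, and filled points have a limma adjusted p under 0.05 (Krt23 met the filter through IFN-λ2 alone). Filled points are all red, with Krt84 at 1.84, Krt4 at 1.43 and Krt12 at 1.41 farthest to the right and Krt14 at -0.77 and Krt79 at -0.67 on the left.

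The second comparison set IFN-β against the same 2 control arrays. It called 0 of the 45 keratin probes with limma, against 1.72 percent of all probes tested, and a test of each probe by its own spread alone, after Benjamini-Hochberg adjustment, also gave 0. Past 2-fold the background is 0.906 percent higher and 0.0273 percent lower. At an unadjusted p under 0.05 limma gave 8 keratin probes, where the background is 12 percent. The groups' arrays did not overlap at 10 higher and 3 lower keratin probes, against 14.6 and 11.6 percent of all probes. Over the 27 probes detected on all 8 arrays the log2 differences ran from -0.26 to 0.65. The median was 0.036 over the 45 keratin probes tested and 0.014 over all probes. The 8 probes with an unadjusted p under 0.05 were those of Krt15, Krt36, Krt84, Krt28, Krt12, Krt78, Krt20 and Krt42. Their log2 differences with IFN-β were 0.65 ± 0.23 SE for Krt15, 0.58 ± 0.17 for Krt36, 0.44 ± 0.11 for Krt84 and 0.43 ± 0.15 for Krt28. They were 0.34 ± 0.11 for Krt12, 0.34 ± 0.13 for Krt78, 0.23 ± 0.10 for Krt20 and -0.26 ± 0.10 for Krt42, and the lowest limma adjusted p among the 8 was 0.168, for Krt84. Of the other keratins, Krt8 differed by -0.01 ± 0.13 SE, Krt80 by 0.07 ± 0.10 and Krt79 by -0.01, each within the spread of its arrays. The brightest unclassified keratin probe, Krt222, varied widely between replicates, at 3690, 936 and 2133 units with IFN-β, 2641 and 1858 in controls, and 1264, 918 and 686 with IFN-λ2 (limma adjusted p = 0.159 for IFN-λ2 against control). A second Krt222 probe was at the floor on all 8 arrays and was not tested. The difference of the interferon responses was tested directly in the third comparison, in which the control arrays bear only on the estimate of the spread.

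IFN-λ2 against IFN-β called 15 keratin probes, 12 higher with IFN-λ2 and 3 lower, against 11.5 percent of all probes in either direction, 6.15 percent higher and 5.33 percent lower. By the fitted values, 5 were higher past 2-fold, for Krt4, Krt6b, Krt12, Krt84 and that Krt85 probe (background 1.46 percent), of which Krt6b and the Krt85 probe are under 2-fold by the bounds given below. There were 2 lower past 2-fold, Krt14 and Krt15 (background 0.707 percent). The arrays did not overlap at 17 higher and 3 lower keratin probes, against 17.9 and 15 percent, and an unadjusted p under 0.05 was reached by 25.6 percent of all probes. The simple keratins gave 3 higher of 6, Krt23 among them, and the stratified keratins 9 higher and 3 lower of 37, the Krt85 probe among them. Over the probes that meet the filter with any 1 group left out, 13 of 37 keratin probes were called, 10 higher and 3 lower, against 12.2 percent of all such probes. The median log2 difference was 0.23 over the keratins and 0.000295 over all probes. Restricted to probes detected on all 8 arrays, 10 of 27 keratin probes (37.0 percent) were called for IFN-λ2 against control and 11 of 27 (40.7 percent) for IFN-λ2 against IFN-β, where all 20267 such probes gave 21.3 and 12.2 percent.

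Krt20 was 0.51 ± 0.08 SE higher on the log2 scale with IFN-λ2 than with IFN-β (limma adjusted p = 0.0110), and Krt19 was 0.60 ± 0.08 higher, or 1.51-fold (limma adjusted p = 0.00512). Krt23 was at least 1.46-fold above its IFN-β level, again with no test. Each of the 3 slides gave the same sign, with 0.44, 0.57 and 0.53 for Krt20 and 0.62, 0.54 and 0.63 for Krt19 on slides 1, 2 and 3. Krt84 was 2.64-fold higher (log2 1.40 ± 0.10 SE, limma adjusted p = 0.000526) and Krt12 2.10-fold higher (log2 1.07 ± 0.10 SE, limma adjusted p = 0.00119), with 1.44, 1.48 and 1.28 by slide for Krt84. Krt80 was 0.76 ± 0.09 SE higher (limma adjusted p = 0.00314). These 3 probes were separated on every slide, and Krt79 was lower on every slide, at -0.53, -0.69 and -0.78 (log2 -0.66 ± 0.09 SE, limma adjusted p = 0.00454). Krt42 was 0.60 ± 0.09 SE higher (limma adjusted p = 0.00832), its IFN-β arrays at 1705, 1872 and 1708 units lying below both controls.

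The dimmer or more variable members also separated the interferons. Krt4, detected on 2 of 3 IFN-β arrays, exceeded its IFN-β level 2.51-fold (log2 1.33 ± 0.24 SE, limma adjusted p = 0.0142, and 0.0566 without IFN-β replicate 3). Krt6b was at least 1.84-fold higher (log2 1.01 ± 0.17 SE, limma adjusted p = 0.0110), being detected on 1 of 3 IFN-β arrays. The second Krt6b probe differed by -0.01 (limma adjusted p = 0.984), and the Krt6b call was lost with both probes averaged. The Krt85 probe at chr15:101261695-101261754 (mm9) was at least 1.65-fold above its IFN-β level, given with no test. Krt78 was 0.56 ± 0.12 SE higher (limma adjusted p = 0.0247, and up to 0.0934 without IFN-λ2 replicate 1 or 2), and Krt5 was 0.61 ± 0.15 SE higher (limma adjusted p = 0.0413), a call that held only without IFN-β replicate 1 among arrays left out in turn (0.00936 to 0.143). The Krt78 call between the interferons was lost with both of its probes averaged. The type I basal keratins were lower with IFN-λ2 than with IFN-β. Krt14 differed by -1.05 ± 0.19 SE (limma adjusted p = 0.0161, and up to 0.0593 without IFN-λ2 replicate 2 or IFN-β replicate 3). Krt15, at 118, 119 and 181 units with IFN-λ2 and 315, 222 and 304 with IFN-β, differed by -1.02 ± 0.21 SE (limma adjusted p = 0.0233, and up to 0.0893 without IFN-λ2 replicate 1 or 2 or IFN-β replicate 1 or 3). By slide Krt14 differed by -1.37, -1.15 and -0.61 and Krt15 by -1.41, -0.90 and -0.75.

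**Figure D4:**
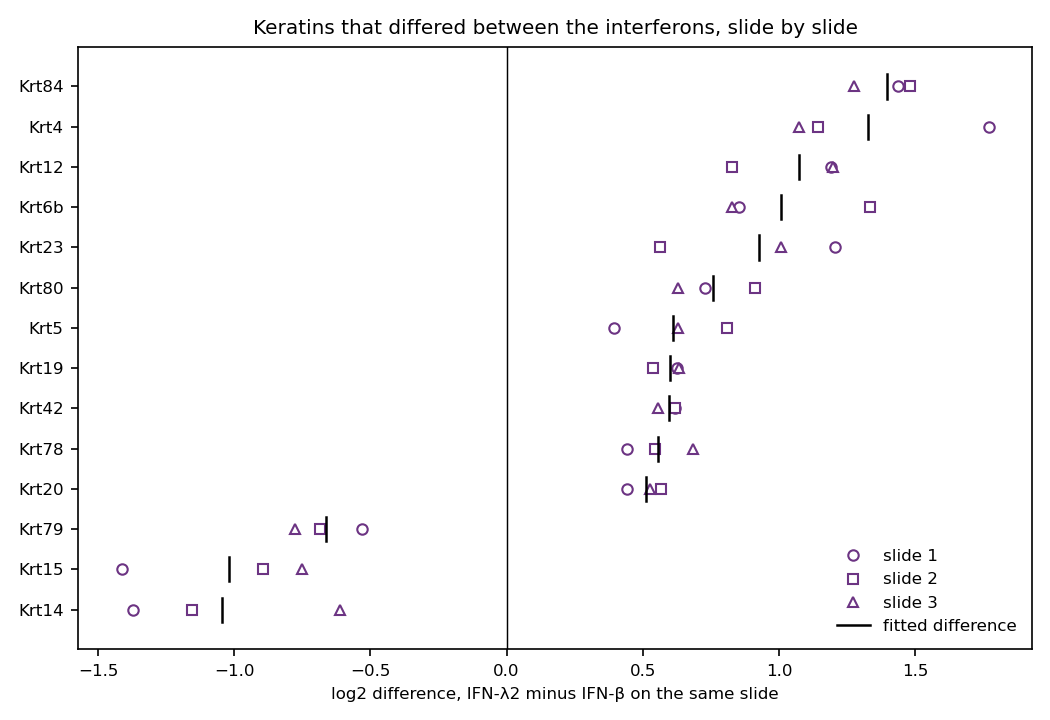
Log2 difference of IFN-λ2 from IFN-β on each of the 3 slides (points) and the fitted difference (bar) for the brightest probe of the 14 keratin genes called in that comparison (Krt23 met the filter through IFN-λ2 alone). Every slide has the sign of the fitted value, from Krt84 at 1.44, 1.48 and 1.28 to Krt15 at -1.41, -0.90 and -0.75.

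A control array was used from slides 2 and 3, and on slide 1 none was used here. On slides 2 and 3 in that order, the log2 difference of IFN-λ2 from control was 2.00 and 1.57 for Krt84, 1.18 and 1.59 for Krt12, 0.98 and 0.65 for Krt80, 0.90 and 0.57 for Krt20 and 0.50 and 0.42 for Krt19. Krt79 differed by -0.84 and -0.63. Krt14 differed by -1.0 and -0.19, so that its decrease rested more on slide 2 than on slide 3.

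Promoter sequences were searched for the keratins that the RefSeq table lists, most of which did not separate the groups, and Krt4, Krt6b, Krt15, Krt19 and Krt80 were not among them. The table (GRCm38.p6) holds 36 start sites of 35 keratin genes, and the 250 bases before the start are printed for 4 of them. Krt20 and Krt12 were chosen as the simple and the corneal member with large IFN-λ2 differences, and Krt84 as the member with the largest. Krt42 was chosen for its match to a STAT motif, and it was called only for IFN-λ2 against IFN-β. Capitals mark the letters TATAAA in Krt20 and Krt12 and the letters TTCAAGGAA in Krt42, and all 4 genes lie on the minus strand.
Krt20 (chr11:99438154-99438403): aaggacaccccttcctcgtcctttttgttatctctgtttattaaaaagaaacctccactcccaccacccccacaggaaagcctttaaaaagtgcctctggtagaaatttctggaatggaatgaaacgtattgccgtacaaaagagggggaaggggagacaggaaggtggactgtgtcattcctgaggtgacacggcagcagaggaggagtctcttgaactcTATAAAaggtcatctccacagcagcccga
Krt12 (chr11:99422260-99422509): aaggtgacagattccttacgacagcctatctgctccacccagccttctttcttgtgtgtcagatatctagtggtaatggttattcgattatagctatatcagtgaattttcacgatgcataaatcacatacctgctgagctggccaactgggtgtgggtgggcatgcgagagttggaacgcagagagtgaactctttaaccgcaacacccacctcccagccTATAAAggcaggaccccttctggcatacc
Krt84 (chr15:101532821-101533070): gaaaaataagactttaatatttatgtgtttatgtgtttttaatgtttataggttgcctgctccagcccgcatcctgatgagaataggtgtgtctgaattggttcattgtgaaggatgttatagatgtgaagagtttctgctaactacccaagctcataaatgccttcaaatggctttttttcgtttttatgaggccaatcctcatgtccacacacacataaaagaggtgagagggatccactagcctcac
Krt42 (chr11:100269952-100270201): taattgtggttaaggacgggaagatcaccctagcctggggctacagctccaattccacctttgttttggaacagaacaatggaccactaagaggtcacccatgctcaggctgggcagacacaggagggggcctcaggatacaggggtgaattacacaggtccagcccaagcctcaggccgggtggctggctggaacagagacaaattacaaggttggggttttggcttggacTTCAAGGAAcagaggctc
The letters TATAAA begin 29 bases before the start in both Krt20 and Krt12. Within the last 50 bases before the start, on either strand, 15 of 36 keratin promoters hold TATAAA (41.7 percent), against 3.50 percent of all 32851 promoters in the table. Among the simple keratins that was 1 of 5, Krt20, and among the stratified keratins 14 of 30. The STAT dimer motif TTCNNNGAA, searched over 250 bases, was found in 4 of 36 keratin promoters (11.1 percent), against 7.02 percent of all promoters. The 4 were those of Krt24, Krt25, Krt31 and Krt42. Krt24 and Krt25 were at the floor on all 8 arrays, and Krt31 was not called in any comparison. An interferon-stimulated response element, taken as GAAA, any 2 bases and GAAA again on either strand, was found in 0 of 36 keratin promoters, against 2.98 percent of all promoters. A match is a string of letters in this window, and a missing match says nothing of sites elsewhere.

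Genes that work with keratins were counted from 4 lists, to be read against the 10.8 percent of all probes called higher and 8.25 percent called lower with IFN-λ2. Among other intermediate filament genes, 11 of 15 were tested, and IFN-λ2 against control gave 1 higher and 4 lower, with a median log2 difference of -0.09. Vim, the filament protein of mesenchymal cells, read 10894 and 13858 units in controls, 6517, 6145 and 7808 with IFN-λ2, and 13318, 12824 and 14348 with IFN-β (log2 -0.86 ± 0.14 SE for IFN-λ2, limma adjusted p = 0.00752). Vim was thus lower on all 3 IFN-λ2 arrays while Krt20 and Krt19 were higher. Prph read 77.8 and 62.4 units in controls, 34.4, 24.8 and 30.1 with IFN-λ2, and 55.9, 46.5 and 58.1 with IFN-β. It was at least 2.20-fold lower with IFN-λ2 than in controls (log2 -1.24 ± 0.17 SE, limma adjusted p = 0.00384). Of the desmosomal and hemidesmosomal genes that anchor keratins, 15 of 19 were tested, with 4 higher and 1 lower and a median of 0.06. Dsp, the desmoplakin that ties keratin filaments to desmosomes, rose (log2 0.65, limma adjusted p = 0.0210), and Pkp1, the plakophilin of stratified desmosomes, fell by 0.56 on the log2 scale (limma adjusted p = 0.0313). Eppk1, the keratin-binding epiplakin, rose with IFN-λ2 (log2 0.84, limma adjusted p = 0.0162) and with IFN-β (log2 0.95, limma adjusted p = 0.0480), the single call of this list for IFN-β.

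Of the cornified envelope genes, which encode the protein shell of terminally differentiated stratified cells, 11 of 19 on the array were tested, with 3 higher and 2 lower for IFN-λ2 against control and a median log2 difference of -0.12. Casp14, the caspase of cornification, read 70.7 and 67.0 units in controls, 364, 355 and 332 with IFN-λ2, and 79.0, 62.7 and 82.7 with IFN-β, a 5.09-fold rise with IFN-λ2 (log2 2.35 ± 0.13 SE, limma adjusted p = 4.84e-05). Tgm1, the transglutaminase that crosslinks the envelope, read 69.2 and 79.9 units in controls, 159, 166 and 164 with IFN-λ2, and 67.4, 82.7 and 76.5 with IFN-β (log2 1.13 ± 0.11 SE, limma adjusted p = 0.000760). Among the envelope proteins, Lor rose (log2 0.39, limma adjusted p = 0.0135) and Sprr1b fell by 1.0 on the log2 scale (limma adjusted p = 0.0221), and a further transglutaminase, Tgm3, did not pass the test (log2 -0.60, limma adjusted p = 0.225). Among transcription factors of simple and stratified epithelia, 13 of 14 were tested, with 4 higher and 3 lower and a median of -0.17. Hnf4a, a nuclear receptor of enterocyte identity, read 169 and 130 units in controls, 28.8, 21.3 and 23.8 with IFN-λ2, and 116, 126 and 118 with IFN-β. It was at least 5.37-fold lower with IFN-λ2 than in controls, with 2 of 3 IFN-λ2 arrays well above background (log2 -2.60 ± 0.16 SE, limma adjusted p = 8.80e-05). For IFN-β against control these lists gave 1 call each among the other filaments and the anchors and 0 among the envelope genes and the factors with limma, where the background is 1.72 percent.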

How the data were processed

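Total RNA of 8 samples of IEC10 cells (2 control, 3 IFN-λ2, 3 IFN-β, grouped by the deposited labels) was measured on 1-colour Agilent arrays with 60-base probes. Per the file headers, the authors scanned and extracted the intensity of each spot with Agilent Feature Extraction 10.7.3.1, and the deposited processed signal intensity is already background-subtracted by that software. Here outlier spots were left out, spots of 1 probe averaged, each array scaled so that its 75th percentile was 1500, values under 15 set to 15, and log2 taken. Probes above 15 on at least 2 arrays (25615 of 39429) were fitted with limma 3.58.1 in R 4.3.3 over all 3 groups and adjusted by Benjamini-Hochberg. The depth of an array has no read count, and the number of arrays limits the precision.

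Python 3.11.15 with numpy 2.4.6, pandas 2.3.3 and matplotlib 3.10.9 did the rest. The fit was tested on simulated data. Named are the keratins called in any comparison, the 6 simple keratins, and those detected on every array of a group, with the brightest probe leading. The members, classes and lists were chosen with earlier results of these data known. Of the keratin probes, 62 took their gene from an accession, 3 from the array's own name and 1 by symbol. Slide equals replicate number: deviations of IFN-λ2 and IFN-β arrays of 1 number correlated at 0.187, 0.277 and 0.317, and those of controls with their numbers at -0.0651 to 0.103, so pairing with controls was not shown. Alternatives changed the scaling, background, floor, filter, probes, samples, test and each array in turn. One probe sequence is not reported here.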

Additional observations from a re-analysis of the deposited data

Results flagged for a closer look

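One signal lies outside the keratin names. The probe of Gm5604, which the current RefSeq table calls Krt8-ps, a pseudogene copy of Krt8 (chr7:24143775-24143832, mm9), read 69238 and 68890 units in controls, 82379, 83030 and 82533 with IFN-λ2, and 69402, 75015 and 73851 with IFN-β. Its log2 difference of IFN-λ2 from control was 0.26 ± 0.07 SE (limma adjusted p = 0.0361), and that of IFN-β was 0.07 ± 0.07 SE (limma adjusted p = 0.718). The Krt8 probe itself did not pass the test (log2 0.12 ± 0.13 SE, limma adjusted p = 0.537), and whether transcripts of Krt8 bind the Gm5604 probe was not tested. The other 3 keratin-like probes under other names were at 15 units on all 8 arrays. With 2 or 3 arrays a group, single arrays were not tested as outliers.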

How the results depend on the processing

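Keratin calls fell from 15 for IFN-λ2 against control to 7 with a floor of 50 units, to 5 by a test of each probe by its own spread alone and to 4 past 2-fold, and from 15 for IFN-λ2 against IFN-β to 9, 8 and 7 in the same order. All probes gave 18.1, 7.0 and 3.84 percent for the first comparison and 10.8, 6.77 and 2.17 percent for the second, against 19.1 and 11.5 percent as reported. With an IFN-λ2 or IFN-β array left out in turn, calls for IFN-λ2 against control ranged from 11 to 14. All probes then gave 10.5 to 20.7 percent. Calls for IFN-λ2 against IFN-β ranged from 11 (without IFN-β replicate 3, 6.37 percent of all probes) to 17 (without IFN-β replicate 2, 9.35 percent). Fits without a control array leave 1, and their counts for IFN-λ2 against control are given above. IFN-β against control gave 0 in all settings run. With replicate number as a block the counts were 12, 0 and 15, where all probes gave 13.5, 1.03 and 8.41 percent. Besides Krt6b, Krt14 and Krt28, the block changed no other call of the brightest probes. Over probes that meet the filter with any 1 group left out, an alternative chosen after seeing the data, the counts were 13, 0 and 13 of 37. All such probes gave 20.4, 1.79 and 12.2 percent. The remaining settings gave 10 to 18 calls for IFN-λ2 against control, or 18.2 to 40 percent of the keratin probes tested. All probes gave 8.88 to 23.7 percent. For IFN-λ2 against IFN-β they gave 10 to 15 calls, or 15.2 to 39.4 percent of the keratin probes, where all probes gave 5.87 to 14.6 percent. The settings run gene by gene exclude the 2-fold limit and the filter with 1 group left out. Over them, 0 of the called values of the 31 named genes turned direction. For IFN-λ2 against control, Krt12, Krt80 and Krt84 stayed called in all of these settings, though Krt80 at 1.78-fold is under the 2-fold limit. There 69 of 307 values lost their call, while 6 values not called gained one. The 6 were of Krt7, Krt18 and Krt42 with the trend and robust prior, Krt75 in 2 settings and Krt85 averaged over its probes. For IFN-λ2 against IFN-β, 7 genes (Krt12, Krt19, Krt20, Krt42, Krt79, Krt80 and Krt84) stayed called in all of these settings, and 41 of 307 values lost their call. Of these 7 genes, only Krt12 and Krt84 also pass the 2-fold limit. Probes near the floor (Krt23, Krt4, Krt6b, Krt36 and the Krt85 probe) had arrays not well above background, and each comparison with control rests on 2 control arrays. The cause of the lost calls was not tested.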
